A study of Mus musculus with 48 samples.

Results

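The transforming growth factor beta (TGF-beta) signalling genes described here were the ligand gene Tgfb1, the receptor genes Tgfbr1 and Tgfbr2, Smad3, which encodes a receptor-activated transcription factor, and Ski, which encodes a repressor of SMAD-driven transcription. They were chosen by gene symbol, with earlier results of these data known. All 5 were found among the 547 endogenous genes of the NanoString nCounter Mouse Immunology panel. All 5 also passed the filter of a mean count of at least 10, as did 491 of the 547 genes. The samples were fat pads of the epididymis, a visceral white fat depot, from C3H/HeOuJ mice of an inbred strain that had unrestricted access to 1 of 6 diets during 6 months. The 4 custom diets were starch/oleate and sucrose/oleate (n = 9 each), sucrose/palmitate (n = 8) and starch/palmitate (n = 7), a cross of a sugar or a starch with a saturated or a monounsaturated fatty acid. A commercial Western diet (n = 7) completed the fat-rich diets, in all of which carbohydrate and fat each gave 42% of the calories, and a commercial chow (n = 8) was the control. The labels give neither the composition of the chow nor the age of the mice, and all mice share the strain.

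TGF-beta is secreted in a latent form and becomes active when integrins or proteases release it. The active ligand binds the type II receptor, encoded by Tgfbr2, which recruits and phosphorylates the type I receptor, encoded by Tgfbr1, and the type I receptor then phosphorylates SMAD proteins such as SMAD3, which enter the nucleus. SKI binds SMAD complexes and represses their target genes, and in adipose tissue the pathway is known for restraining adipocyte differentiation and for fibrosis, with macrophages among the sources of the ligand.

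The sequences of the start regions are shown for Tgfb1 and Tgfbr1, because their counts moved together, and for Tgfbr2, whose differences between diets were smaller. Each line holds the 250 bases before the annotated start, 5′ to 3′ on the strand of the gene, from RefSeq on GRCm38.p6. Tgfb1 lies on the plus strand at chr7:25686752-25687001, Tgfbr1 on the plus strand at chr4:47352972-47353221, the first of its 2 annotated starts, and Tgfbr2 on the minus strand at chr9:116175364-116175613. Capitals mark the GC box (GGGCGG on either strand) and the Smad box (CAGAC on either strand).
Tgfb1: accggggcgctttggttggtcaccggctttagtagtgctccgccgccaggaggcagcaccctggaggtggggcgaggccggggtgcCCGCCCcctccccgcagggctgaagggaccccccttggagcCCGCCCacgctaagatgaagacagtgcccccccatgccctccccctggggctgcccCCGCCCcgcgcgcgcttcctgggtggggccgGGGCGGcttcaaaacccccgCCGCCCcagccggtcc
Tgfbr1: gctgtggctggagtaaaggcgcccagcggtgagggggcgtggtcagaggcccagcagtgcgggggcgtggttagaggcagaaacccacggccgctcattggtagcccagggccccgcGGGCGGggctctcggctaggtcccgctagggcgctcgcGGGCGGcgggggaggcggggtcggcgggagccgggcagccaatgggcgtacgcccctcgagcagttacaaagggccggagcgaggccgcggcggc
Tgfbr2: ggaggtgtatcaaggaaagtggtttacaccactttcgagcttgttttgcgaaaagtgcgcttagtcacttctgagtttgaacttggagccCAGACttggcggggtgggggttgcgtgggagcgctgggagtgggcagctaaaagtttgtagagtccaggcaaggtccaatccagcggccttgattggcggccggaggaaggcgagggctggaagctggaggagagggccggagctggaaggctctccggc
The Tgfb1 window held 5 GC boxes and the Tgfbr1 window 2, while the window of the second annotated Tgfbr1 start (chr4:47385966-47386215) held no GC box, 1 Smad box and no CCAAT box at 52.8% G and C. Of 32851 mouse windows of the same length, 32.7% held at least 1 GC box. The Tgfbr2 window held no GC box and 1 Smad box, a motif present in 42.2% of the windows. None of these windows held an AP-1 site (TGANTCA), which 6.75% of all windows held. The CCAAT box (CCAAT on either strand), in 33.9% of windows, was present 2 times each for Tgfbr1 and Tgfbr2 and was not found for Tgfb1. No marked motif overlapped another in these windows. The share of G and C was 75.2% for Tgfb1, 74.8% for Tgfbr1 and 58.4% for Tgfbr2, with a median of 52.4% over all windows. The windows of Smad3 and Ski, not printed, held 2 and 5 GC boxes at 69.2% and 87.6% G and C. Among the 5 genes, GC boxes were therefore not particular to Tgfb1 and Tgfbr1. These letter matches describe the windows and bear on no binding measurement.

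Each of the 48 libraries gave counts of barcoded probes, with totals over the gene probes between 396391 and 888687. Values below are counts divided by a library factor, the geometric mean of 14 reference genes on the panel, called scaled counts, and they are not comparable between genes. The lowest raw count of any of the 5 genes in any library was 269, against a mean of 7.51 and a maximum of 21 for the negative control probes. Differences are log2 differences ± SE from an edgeR fit of all 48 libraries, and "rose" and "fell" are used only for a Benjamini-Hochberg adjusted p below 0.05 over the 491 genes tested. With this scaling the median of all tested genes lay above chow by 0.20 and 0.24 on the sucrose and starch diets with palmitate, by 0.19 and 0.34 on those with oleate and by 0.25 on the Western diet. With the trimmed mean of M-values (TMM) scaling, which centres most genes on no difference, these medians were 0.06, 0.08, 0.01, 0.03 and 0.06, so both scalings are given where a call depends on them. Western diet replicate 2 stood apart, with a scaled count of 173666 for Clu, the gene of clusterin, against at most 3378 in the other 6 Western diet libraries. Positive control probes are spiked into each reaction, and the ratio of control A to control B depends on the assay and not on the tissue. It ran from 2.92 to 3.16 on starch/palmitate and from 2.92 to 3.07 on sucrose/oleate, entirely below the 3.17 to 3.39 on chow. In these groups the diet and this ratio cannot be told apart. Sucrose/oleate also lay entirely below starch/oleate (3.11 to 3.28), and the Western diet (3.27 to 3.43) entirely above starch/palmitate and sucrose/oleate. The same limit holds where those groups are compared. Results of the 5 genes that were lost on adjustment for the ratio as a covariate are named.

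All 5 genes differed among the 6 diet groups, as did 64.8% of all genes tested. The adjusted p of this F test in edgeR was 4.2e-11 for Tgfbr1, 1.6e-06 for Ski, 1.0e-05 for Smad3, 1.3e-05 for Tgfb1 and 0.0082 for Tgfbr2. The Tgfbr2 call did not pass with TMM scaling (adjusted p = 0.11), DESeq2 (adjusted p = 0.098) or TMM with the positive control ratio (adjusted p = 0.12), and that of Ski not with the last of these (adjusted p = 0.052). Tgfb1 and Tgfbr1 had their highest means on the 2 oleate diets and Tgfbr2 on starch/oleate, while Smad3 and Ski had theirs on the Western diet.

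**Figure D1:**
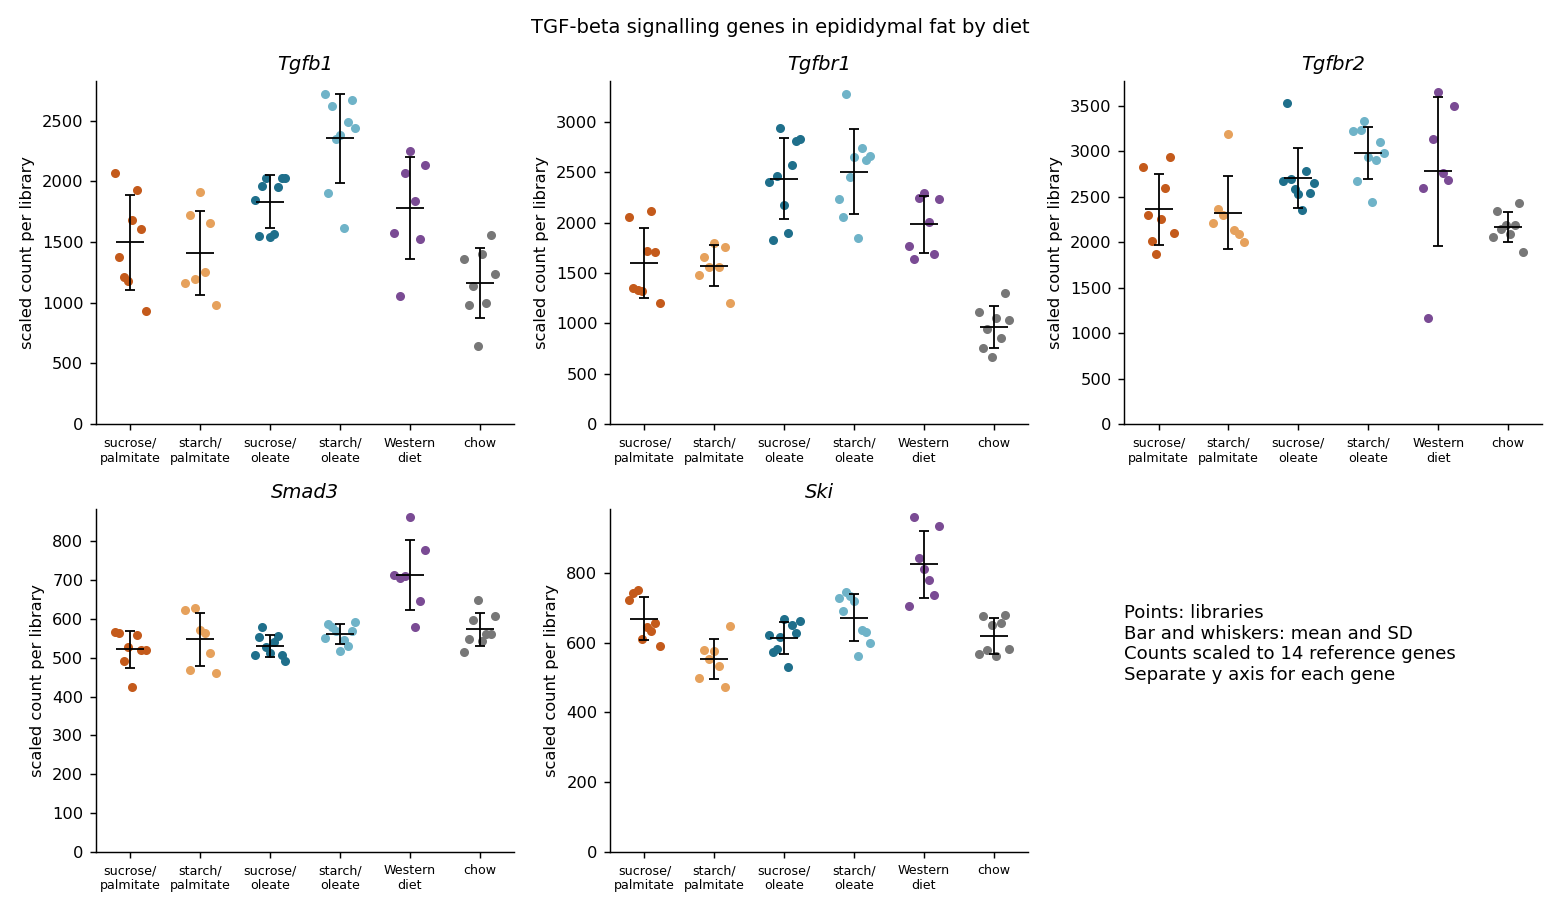
Scaled counts of the 5 genes in each library by diet, with the mean and SD of each group. Tgfbr1 on sucrose/oleate, starch/oleate and the Western diet lies wholly above chow, and Smad3 and Ski have their highest means, 714 and 824, on the Western diet.

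Tgfb1 encodes the ligand TGF-beta 1, which signals through the receptor pair encoded by Tgfbr1 and Tgfbr2. On sucrose/palmitate the lowest, median and highest scaled counts of Tgfb1 were 928, 1493 and 2067. On starch/palmitate they were 985, 1256 and 1912, a range like that of the other palmitate diet. On sucrose/oleate the lowest, median and highest counts were 1538, 1952 and 2030. On starch/oleate they were 1617, 2443 and 2721, the highest of the 6 groups. Western diet libraries gave 1056, 1842 and 2250. On chow they were 647, 1189 and 1561. All 9 starch/oleate and 5 of 7 Western diet libraries lay above the highest chow library, and both palmitate groups overlapped chow. Ordered by mean, starch/oleate (2356 ± 368) stood above sucrose/oleate (1833 ± 220) by more than either SD (SD, n = 9 each). The steps from sucrose/oleate through the Western diet, sucrose/palmitate and starch/palmitate to chow (1166 ± 289, SD, n = 8) were each smaller than the larger SD of the 2 neighbours.

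Tgfb1 rose against chow on starch/oleate by 1.01 ± 0.16 (edgeR adjusted p = 8.8e-07), on sucrose/oleate by 0.65 ± 0.16 (adjusted p = 0.0010) and on the Western diet by 0.61 ± 0.16 (adjusted p = 0.0030). The differences on sucrose/palmitate, 0.36 ± 0.16 (adjusted p = 0.10), and on starch/palmitate, 0.28 ± 0.16 (adjusted p = 0.20), did not pass. With TMM scaling the 3 rises were 0.71, 0.50 and 0.40 and each passed. The rise on sucrose/oleate did not pass after adjustment for the positive control ratio (0.55 ± 0.24, adjusted p = 0.16). On sucrose/palmitate the difference passed when chow replicate 7 (0.43, adjusted p = 0.047) or sucrose/palmitate replicate 8 (0.44, adjusted p = 0.042) was left out.

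Tgfbr1 encodes the type I receptor kinase that passes the signal to SMAD proteins, and it rose against chow on all 5 fat-rich diets. On sucrose/palmitate its lowest, median and highest scaled counts were 1207, 1529 and 2113. On starch/palmitate they were 1203, 1561 and 1803, close to the other palmitate diet. On sucrose/oleate the lowest, median and highest counts were 1830, 2461 and 2940. On starch/oleate they were 1853, 2628 and 3278, so the 2 oleate groups overlapped almost fully. On the Western diet they were 1642, 2006 and 2300. On chow they were 664, 988.5 and 1299. The oleate and Western diet groups did not overlap chow, and 7 of 8 sucrose/palmitate and 6 of 7 starch/palmitate libraries exceeded every chow library. The mean was 2508 ± 421 on starch/oleate and 2436 ± 403 on sucrose/oleate (SD, n = 9 each), 2 neighbours that differed by less than their SD. The Western diet followed at 1984 ± 283 (SD, n = 7), below sucrose/oleate and above sucrose/palmitate by more than the larger SD of each pair. Sucrose/palmitate (1601 ± 352, n = 8) and starch/palmitate (1575 ± 201, n = 7) differed by less than their SD, and chow (965 ± 205, n = 8) lay below starch/palmitate by more than it.

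The fitted rises of Tgfbr1 were 0.73 ± 0.13 on sucrose/palmitate (edgeR adjusted p = 0.00050), 0.71 ± 0.13 on starch/palmitate (adjusted p = 0.00031), 1.34 ± 0.13 on sucrose/oleate (adjusted p = 6.9e-11), 1.38 ± 0.13 on starch/oleate (adjusted p = 8.8e-12) and 1.04 ± 0.13 on the Western diet (adjusted p = 1.7e-07). On the linear scale the rise was 1.66-fold, 1.63-fold, 2.52-fold, 2.60-fold and 2.06-fold in the same order of diets. By p it ranked first of the 491 genes on sucrose/palmitate. TMM scaling gave 0.58, 0.57, 1.19, 1.07 and 0.86, all past the threshold. The rise on starch/palmitate was 0.56 ± 0.18 after adjustment for the positive control ratio (adjusted p = 0.063) and did not pass there.

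Tgfbr2 encodes the type II receptor, which binds the ligand first. On sucrose/palmitate its lowest, median and highest scaled counts were 1873, 2278 and 2940. On starch/palmitate they were 2005, 2211 and 3195, with replicate 4 alone above 2361. On sucrose/oleate the lowest, median and highest counts were 2351, 2655 and 3527. On starch/oleate they were 2443, 2986 and 3329, the highest median of the 6 groups. Western diet libraries gave 1166, 2759 and 3650. On chow they were 1898, 2168 and 2433. All starch/oleate libraries lay above chow, both palmitate groups overlapped it, and Western diet replicate 2 lay below every chow library while the other 6 lay above every one. In order of mean, starch/oleate (2982 ± 286), the Western diet (2783 ± 821), sucrose/oleate (2706 ± 332), sucrose/palmitate (2363 ± 388), starch/palmitate (2326 ± 402) and chow (2168 ± 168) differed from their neighbours by less than the larger SD.

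Tgfbr2 rose on starch/oleate by 0.46 ± 0.12 (edgeR adjusted p = 0.0014), on the Western diet by 0.36 ± 0.13 (adjusted p = 0.024) and on sucrose/oleate by 0.32 ± 0.12 (adjusted p = 0.037). These rises did not pass with TMM scaling, where they were 0.14 (adjusted p = 0.18), 0.13 (adjusted p = 0.31) and 0.14 (adjusted p = 0.24). After adjustment for the positive control ratio the rise on sucrose/oleate did not pass either (0.18 ± 0.19, adjusted p = 0.55). With DESeq2 none of these rises passed, and with limma those on sucrose/oleate and the Western diet did not. The Western diet rise was also lost with the replicate block and with only the compared groups. Without Western diet replicate 2 the rise on that diet was 0.49 ± 0.10 (adjusted p = 0.00012). Leaving out Western diet replicate 3, 4 or 7 ended the call there, with adjusted p between 0.051 and 0.094. The sucrose/oleate call ended without sucrose/oleate replicate 2, its highest library (0.26 ± 0.12, adjusted p = 0.098), without replicate 7, or without chow replicate 1, 3, 4, 5, 6 or 8. On sucrose/palmitate and starch/palmitate the differences were 0.12 ± 0.13 and 0.10 ± 0.13, and with TMM scaling they were -0.04 and -0.06.

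Smad3 encodes a transcription factor that the type I receptor activates. The 4 custom diets had medians between 524.5 on sucrose/palmitate and 569 on starch/oleate. On the Western diet its lowest, median and highest scaled counts were 579, 710 and 862. On chow they were 514, 561 and 649. The Western diet and chow overlapped while 5 of 7 Western diet libraries exceeded every chow library, and none of the 33 custom diet libraries did. The Western diet mean of 714 ± 90.3 (SD, n = 7) stood above the chow mean of 573 ± 42.8 (SD, n = 8) by more than either SD. The means of chow and of the custom diets, down to 522 ± 47.2 on sucrose/palmitate (SD, n = 8), followed each other in steps smaller than an SD.

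Ski encodes the nuclear repressor that binds SMAD complexes. On the Western diet its lowest, median and highest scaled counts were 704, 812 and 960. On starch/palmitate, the lowest group, they were 474, 553 and 648. On chow they were 561, 615 and 680. All Western diet libraries lay above every chow library, and 4 of 7 starch/palmitate libraries lay below every one. The means were 824 ± 95.4 on the Western diet (SD, n = 7), 672 ± 66.6 on starch/oleate (SD, n = 9), 669 ± 62.1 on sucrose/palmitate (SD, n = 8), 619 ± 51.4 on chow (SD, n = 8), 614 ± 45.8 on sucrose/oleate (SD, n = 9) and 552 ± 57.3 on starch/palmitate (SD, n = 7). In this order the steps from the Western diet to starch/oleate and from sucrose/oleate to starch/palmitate exceeded the larger SD, and the others did not.

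Against chow, Smad3 rose on the Western diet by 0.32 ± 0.07 (edgeR adjusted p = 0.00058) and Ski by 0.41 ± 0.08 (adjusted p = 4.5e-05), and neither passed on a custom diet. Without Western diet replicate 2 these 2 rises were 0.32 ± 0.08 (adjusted p = 0.00059) and 0.37 ± 0.08 (adjusted p = 0.00012), and those of Tgfb1 and Tgfbr1 were 0.70 ± 0.16 (adjusted p = 0.00045) and 1.08 ± 0.14 (adjusted p = 9.6e-08). The Smad3 and Ski calls depended on the scaling: with TMM the Western diet differences were 0.12 ± 0.09 for Smad3 (adjusted p = 0.29) and 0.24 ± 0.10 for Ski (adjusted p = 0.060). On the custom diets Smad3 was at -0.13, -0.07, -0.11 and -0.03 with reference gene scaling, in the order sucrose/palmitate, starch/palmitate, sucrose/oleate and starch/oleate, and did not pass. With TMM scaling Smad3 fell by 0.30 on sucrose/palmitate (adjusted p = 0.024), by 0.29 on sucrose/oleate (adjusted p = 0.0051) and by 0.36 on starch/oleate (adjusted p = 0.00031), and it was at -0.22 on starch/palmitate (adjusted p = 0.058). Ski on starch/palmitate was at -0.17 ± 0.08 (adjusted p = 0.097) with reference gene scaling and fell by 0.31 with TMM scaling (adjusted p = 0.022). Without starch/palmitate replicate 7, its highest library, the value was -0.21 with reference gene scaling (adjusted p = 0.038).

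The Western diet was also set against the mean of the 4 custom diets, a comparison added after the levels above had been seen. Smad3 rose by 0.40 ± 0.06 (edgeR adjusted p = 1.3e-06) and Ski by 0.40 ± 0.06 (adjusted p = 3.3e-06), 2 of the 5 genes, where 1.83% of all genes tested rose. Over all genes, 12 were called in either direction here, and 35 without Western diet replicate 2. They ranked 3 and 4 of the 491 genes by p. With TMM scaling these differences were 0.41 ± 0.07 for Smad3 and 0.43 ± 0.08 for Ski, both past the threshold. Smad3 passed in all 10 alternatives run, with a range of 0.37 to 0.45 and a highest adjusted p of 0.046. Ski did not pass after adjustment for the positive control ratio (0.30 ± 0.08, adjusted p = 0.061), nor with TMM and the ratio together (adjusted p = 0.34). Tgfb1 (0.03 ± 0.13), Tgfbr1 (0.0021 ± 0.11) and Tgfbr2 (0.11 ± 0.10) did not pass, with 95% intervals of -0.23 to 0.29, -0.21 to 0.21 and -0.10 to 0.31.

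Counted by diet, 1 of the 5 genes rose against chow on sucrose/palmitate, where 14.9% of all genes tested rose. On starch/palmitate it was 1 of 5, with 20.6% of all genes rising. On sucrose/oleate 3 of 5 rose, beside 28.9% of all genes, and on starch/oleate 3 of 5, beside 48.3%. On the Western diet all 5 rose with reference gene scaling, beside 32.8% of all genes, and 2 of 5, Tgfb1 and Tgfbr1, with TMM scaling. None of the 5 fell with reference gene scaling. As a median, the difference of the 5 genes was 0.12 on sucrose/palmitate, 0.10 on starch/palmitate, 0.32 on sucrose/oleate, 0.46 on starch/oleate and 0.41 on the Western diet, against medians of 0.20, 0.24, 0.19, 0.34 and 0.25 for all genes tested. The 5 comparisons share the chow libraries.

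**Figure D2:**
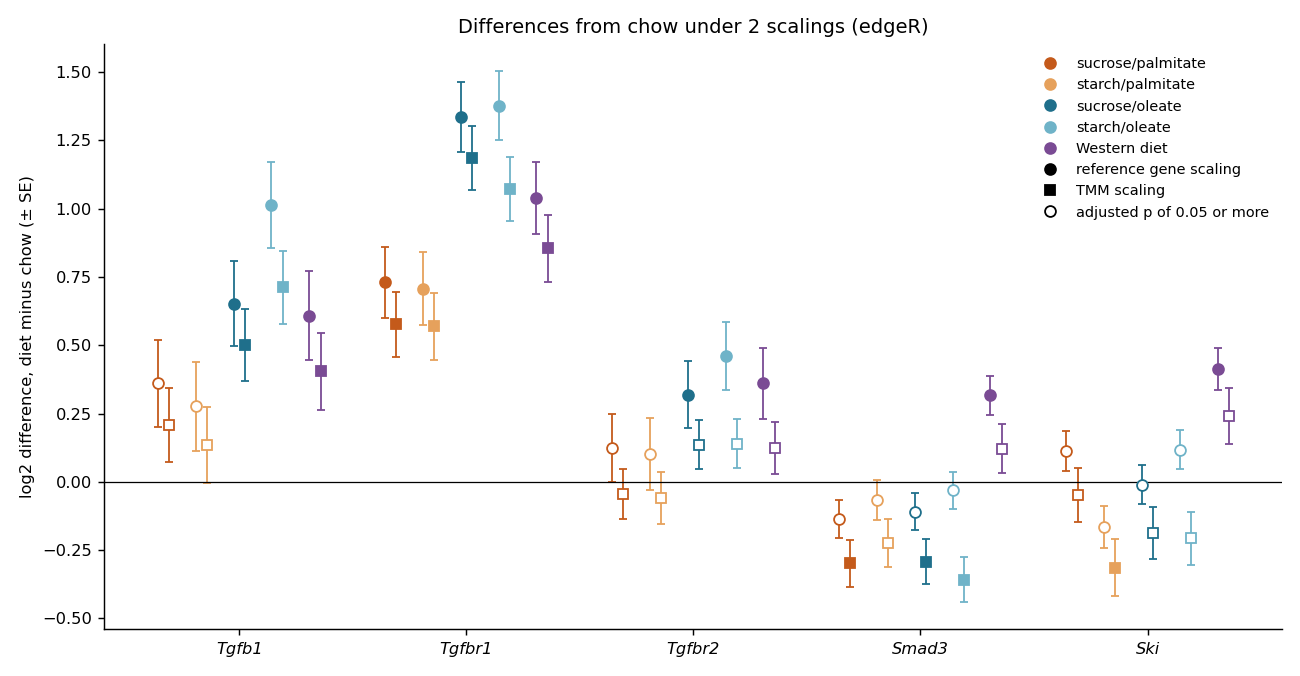
Log2 differences from chow ± SE for the 5 genes on each fat-rich diet, with reference gene scaling (circles) and TMM scaling (squares); filled symbols have an adjusted p below 0.05. Tgfbr1 is filled throughout, while the Tgfbr2 and Western diet Smad3 and Ski symbols are open with TMM scaling.

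Ratios of 2 genes within a library do not depend on the scaling, so the receptor genes were also compared as a ratio of raw counts, a measure added after the data had been seen. The median ratio of Tgfbr1 to Tgfbr2 was 0.682 on sucrose/palmitate, 0.680 on starch/palmitate, 0.914 on sucrose/oleate, 0.846 on starch/oleate and 0.681 on the Western diet, against 0.471 on chow. The highest chow library had 0.543. All 8 sucrose/palmitate, all 7 starch/palmitate, 8 of 9 sucrose/oleate, all 9 starch/oleate and all 7 Western diet libraries lay above it. The ratio was higher than on chow by 0.62, 0.64, 1.03, 0.93 and 0.77 on the log2 scale in that order of diets, each with an adjusted p of 0.00055 (two-sided exact permutation test, adjusted over 10 ratio tests). The ratio of Tgfb1 to Tgfbr2 was higher on starch/oleate alone by that test, with a median of 0.813 against 0.583 on chow (0.58 on the log2 scale, adjusted p = 0.00055, exact permutation test). For the other diets this ratio gave an adjusted p between 0.058 on sucrose/oleate and 0.32 on starch/palmitate. Western diet replicate 2 held the highest values of both ratios on its diet, 1.41 and 0.906.

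**Figure D3:**
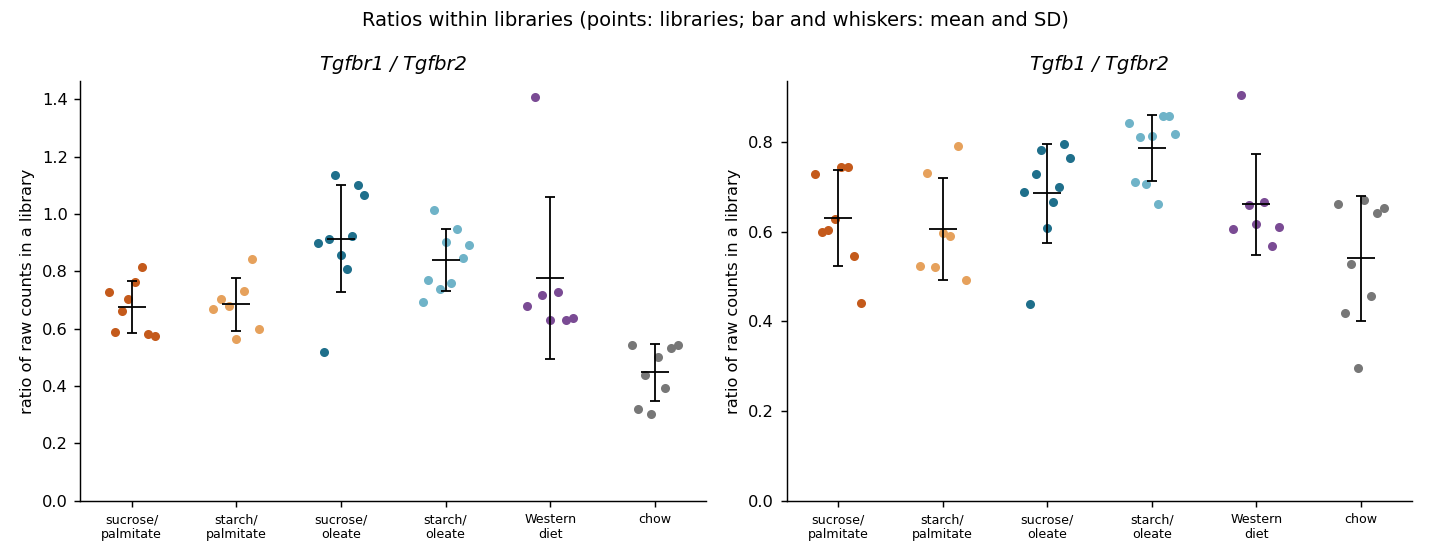
Ratios of raw counts of Tgfbr1 to Tgfbr2 and of Tgfb1 to Tgfbr2 in each library by diet, with the mean and SD of each group. The ratio of the receptor genes lies above the highest chow value of 0.543 in all but 1 of the fat-rich libraries, sucrose/oleate replicate 2 at 0.519.

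The cross of the 4 custom diets asked whether the kind of fat or carbohydrate moved these genes. Over both carbohydrates, 3 of the 5 genes fell on palmitate relative to oleate, and 23.6% of all genes tested fell. Tgfbr1 fell by 0.64 ± 0.09 (edgeR adjusted p = 4.5e-06), Tgfb1 by 0.51 ± 0.11 (adjusted p = 0.00063) and Tgfbr2 by 0.28 ± 0.09 (adjusted p = 0.014). These 3 calls were kept in all 10 alternatives and with each of the 48 libraries left out in turn; over the alternatives Tgfbr1 ranged from -0.67 to -0.55, Tgfb1 from -0.54 to -0.43 and Tgfbr2 from -0.30 to -0.18. Smad3 (-0.03 ± 0.05, 95% interval -0.13 to 0.07) and Ski (-0.08 ± 0.05, 95% interval -0.18 to 0.02) did not pass. The median of the 5 genes was -0.28, beside -0.05 for all genes.

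With starch as the carbohydrate, all 7 starch/palmitate libraries had less Tgfbr1 than every starch/oleate library, and 4 of the 7 had less Tgfb1. In that comparison 4 of 5 genes fell, beside 24.2% of all genes tested: Tgfb1 by 0.74 ± 0.16 (edgeR adjusted p = 0.00077), Tgfbr1 by 0.67 ± 0.13 (adjusted p = 0.00027), Tgfbr2 by 0.36 ± 0.13 (adjusted p = 0.029) and Ski by 0.28 ± 0.07 (adjusted p = 0.0040). The falls of Tgfbr2 and Ski did not pass with DESeq2 or with TMM scaling, with or without the positive control ratio. That of Tgfbr2 did not pass without starch/palmitate replicate 5, 6 or 7 (adjusted p between 0.056 and 0.071). It was also lost without the 5 libraries high in epithelial genes, among them starch/palmitate replicates 1 and 3 and starch/oleate replicates 2 and 6. With sucrose, 6 of 8 sucrose/palmitate libraries had less Tgfbr1 than every sucrose/oleate library. Only Tgfbr1 of the 5 genes fell there, by 0.61 ± 0.13 (adjusted p = 0.0078), beside 1.43% of all genes, and this call did not pass after adjustment for the positive control ratio (-0.49 ± 0.16, adjusted p = 0.16). Tgfb1 was at -0.29 ± 0.15 (adjusted p = 0.25) with sucrose, and the difference between its 2 fat effects did not pass (interaction 0.45 ± 0.22, adjusted p = 0.28).

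Sucrose against starch over both fats moved 0 of the 5 genes past the threshold in edgeR, beside 9.98% of all genes tested in either direction. None of the 5 had an unadjusted p below 0.05 there, and none was called by DESeq2 or by limma. The differences were 0.07 ± 0.05 for Ski, -0.01 ± 0.09 for Tgfbr1, -0.06 ± 0.09 for Tgfbr2, -0.07 ± 0.05 for Smad3 and -0.14 ± 0.11 for Tgfb1. The 95% intervals reached lowest for Tgfb1 (-0.36 to 0.08) and highest for Ski (-0.03 to 0.18). With oleate, 0 of 5 passed, beside 15.1% of all genes. Tgfb1 was at -0.36 ± 0.15 there (adjusted p = 0.092, unadjusted p = 0.020), and passed without starch/oleate replicate 6 (-0.42, adjusted p = 0.046). It also passed with only the compared groups and without the 5 libraries high in epithelial genes, among them starch/oleate replicates 2 and 6. Over the alternatives Tgfb1 ranged from -0.46 to -0.21, with adjusted p from 0.0088 to 0.41. Of the 9 starch/oleate libraries, 7 had more Tgfb1 than every sucrose/oleate library. With palmitate, Ski rose by 0.28 ± 0.08 (adjusted p = 0.043), 1 of 5 genes beside 0.611% of all, and this call was lost in 8 of 10 alternatives, among them TMM scaling (0.27, adjusted p = 0.22) and adjustment for the positive control ratio (0.19, adjusted p = 0.78).

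Ski was also the only one of the 5 genes to pass for the interaction of carbohydrate and fat, a test that 5.50% of all genes passed. Its means were 669 on sucrose/palmitate and 552 on starch/palmitate, a higher value with sucrose, and 614 on sucrose/oleate and 672 on starch/oleate, a lower value with sucrose. The interaction was 0.41 ± 0.10 (edgeR adjusted p = 0.018). It was smaller and did not pass with DESeq2 (0.24 ± 0.15, adjusted p = 0.36) or after adjustment for the positive control ratio (0.24 ± 0.14, adjusted p = 0.41), and it did not pass with TMM scaling.

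Within diets, Tgfb1 and Tgfbr1 varied together between libraries. As deviations of log2 scaled counts from the diet means over 48 libraries, their Pearson r was 0.884 and Spearman's rho 0.889. For both, the permutation p and its adjusted p were at most 0.0001, the smallest value printed for these tests. Without the 2 libraries farthest out on Tgfb1 the r was 0.885, and with TMM scaling it was 0.826. Tgfb1 with Tgfbr2 gave r = 0.598 and rho = 0.567 (permutation adjusted p = 0.00035 and 0.00075), 0.593 without the 2 farthest libraries. With TMM scaling r was 0.360 (adjusted p = 0.026) and rho 0.336 (adjusted p = 0.12), so the rank relation did not pass there. Tgfbr1 with Tgfbr2 gave r = 0.396 and rho = 0.407 (permutation adjusted p = 0.0043 and 0.018), and 0.086 with TMM scaling (adjusted p = 0.55), so this relation did not hold under both scalings. The other 7 of the 10 pairs did not pass over all 48 libraries. Tgfbr2 with Ski reached r = 0.378 (permutation adjusted p = 0.034) only without the 2 farthest libraries. The members of a pair share the scaling factor of the library.

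By likeness of log2 scaled counts over all 48 libraries, the genes nearest to Tgfb1 were Tnfrsf1b (r = 0.976), a tumour necrosis factor receptor, Fcer1g (r = 0.973), the common signalling chain of Fc receptors, and Btk (r = 0.969), a kinase of B and myeloid cells. Nearest to Tgfbr1 were Lair1 (r = 0.942), an inhibitory collagen receptor of leukocytes, Cd9 (r = 0.932), a tetraspanin, and Tnfrsf11a (r = 0.922), the receptor RANK. As deviations from diet means, Tgfb1 (r = 0.884) was nearest to Tgfbr1, but Tgfbr1 ranked only 35 among the genes nearest to Tgfb1, behind Tnfrsf1b (r = 0.962), Lilrb4 and Fcer1g (r = 0.958 each). Nearest to Tgfbr2 were Fyn (r = 0.923), a Src family kinase, C1qa (r = 0.863), a chain of complement C1q, and Ikzf1 (r = 0.858), a lymphoid transcription factor. The highest likeness was lower for Smad3, with Stat3 (r = 0.504), Ski (r = 0.460) and Stat2 (r = 0.450), and for Ski, with Abl1 (r = 0.608), Nfkbiz (r = 0.515) and Trp53 (r = 0.511). These are descriptions over libraries that share diets, depth and scaling.

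Genes of several cell types moved with the diets, with macrophage genes rising against chow on all 5 fat-rich diets. Of the macrophage marker list 9 genes were on the panel, all detected, and none was at 0 in any library. Their summed scaled count ranged from 7277 to 23477 (median 13951) on sucrose/palmitate, from 8107 to 20853 (median 13927) on starch/palmitate and from 15344 to 23330 (median 20718) on sucrose/oleate. It ranged from 17318 to 29780 (median 25091) on starch/oleate and from 5842 to 27601 (median 22716) on the Western diet, against 3471 to 13538 (median 9042) on chow. Against chow 4, 6, 7, 9 and 7 of these 9 genes rose on sucrose/palmitate, starch/palmitate, sucrose/oleate, starch/oleate and the Western diet, beside the 14.9, 20.6, 28.9, 48.3 and 32.8% of all genes that rose there, and 7 of 9 fell on palmitate relative to oleate, beside 23.6%. Of 3 adipocyte markers measured, 3, 3, 2, 2 and 3 fell against chow in the same order of diets. Of 3 endothelial markers, 0, 0, 2, 3 and 2 fell, where 2.24, 4.68, 7.74, 12 and 7.94% of all genes fell. Of 5 B cell genes tested, 5, 1, 1, 5 and 5 rose, and 4 fell on palmitate relative to oleate with starch, beside 24.2% of all genes. The summed B cell count, over 6 genes on the panel, had medians of 1550, 1491, 1862, 2629 and 2002 in this order, against 901.5 on chow. Of 6 T cell genes 1, 3, 2, 4 and 1 rose, of 5 epithelial genes 1, 3, 0, 2 and 1, and of 3 fibroblast and pericyte genes 0, 0, 0, 1 and 1. Single libraries held most of the epithelial signal, with a highest summed count of 29380 on starch/palmitate beside a median of 360.9 there. Mean counts were below the negative controls for Cd8a on chow and Cd79a on the Western diet, and no marker was at 0. After adjustment for the positive control ratio, 1 of all genes tested rose and 1 fell on starch/palmitate, so most marker calls there were lost. On sucrose/oleate 21 of all genes rose and 10 fell with this adjustment, and on sucrose/palmitate 31 rose and 9 fell. The part of these cell types in the differences of the 5 genes was not tested, and in whole tissue more cells of a type cannot be told apart from more RNA per cell.

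**Figure D4:**
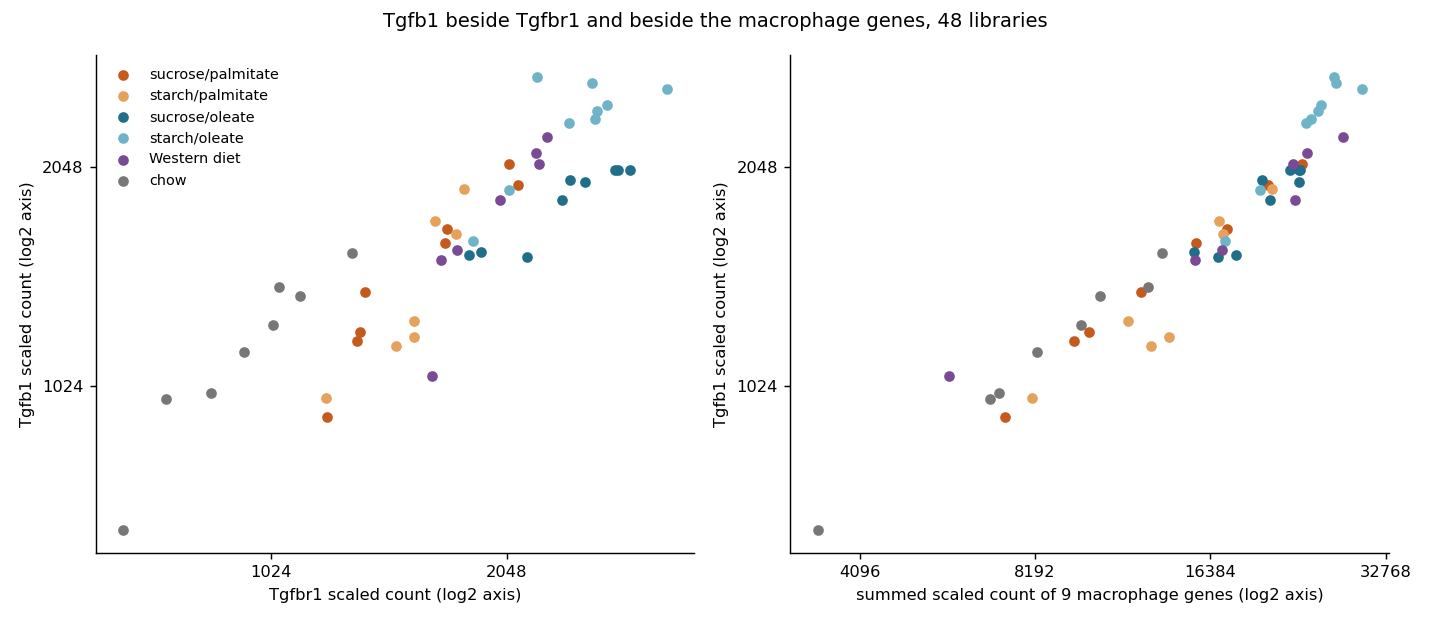
Tgfb1 scaled counts beside Tgfbr1 scaled counts (left) and beside the summed scaled counts of the 9 macrophage genes (right), 1 point per library, log2 axes. Points run from low to high on both axes in each panel, with a chow library (Tgfb1 at 647, summed macrophage count 3471) lowest and starch/oleate libraries highest on the Tgfb1 axis.

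Of a wider TGF-beta pathway list of 49 genes, 11 were on the panel beside the 5, and all 11 were tested. None of its receptors was among them. Against chow 2 of the 11 rose and 0 fell on sucrose/palmitate, 2 rose and 1 fell on starch/palmitate, 3 rose and 2 fell on sucrose/oleate, 3 rose and 2 fell on starch/oleate, and 4 rose and 2 fell on the Western diet. Of all genes tested 14.9, 20.6, 28.9, 48.3 and 32.8% rose in this order and 2.24, 4.68, 7.74, 12 and 7.94% fell, so the share of the 11 that rose was near or below that of all genes on each diet. The median difference of the 11 was 0.03, -0.0023, 0.03, 0.42 and 0.22 in this order, against 0.20, 0.24, 0.19, 0.34 and 0.25 for all genes tested.

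Of the other ligand genes, Tgfb3 fell on 4 of the 5 fat-rich diets. Its mean scaled count was 446 ± 106 on sucrose/palmitate, 373 ± 77.5 on starch/palmitate, 362 ± 65.8 on sucrose/oleate, 348 ± 56.1 on starch/oleate and 404 ± 40.3 on the Western diet, against 512 ± 88.2 on chow (SD, n = 7 to 9). Tgfb3 fell on starch/palmitate by 0.46 ± 0.14 (edgeR adjusted p = 0.015), on sucrose/oleate by 0.50 ± 0.13 (adjusted p = 0.0022), on starch/oleate by 0.56 ± 0.13 (adjusted p = 0.00031) and on the Western diet by 0.34 ± 0.14 (adjusted p = 0.046), and was at -0.20 on sucrose/palmitate. With TMM scaling the 4 differences of Tgfb3 were -0.62, -0.69, -0.89 and -0.55 and all passed. After adjustment for the positive control ratio those on starch/palmitate (adjusted p = 0.063) and the Western diet (adjusted p = 0.062) did not. Tgfb2 rose on the Western diet only, by 0.58 ± 0.23 (adjusted p = 0.041), and did not pass there with TMM scaling (0.43, adjusted p = 0.17).

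Plau encodes urokinase, a protease that acts in the activation of latent TGF-beta through plasmin, and it rose on all 5 diets. The rises of Plau were 0.67 ± 0.14 on sucrose/palmitate, 0.83 ± 0.14 on starch/palmitate, 1.14 ± 0.13 on sucrose/oleate, 1.12 ± 0.13 on starch/oleate and 1.00 ± 0.14 on the Western diet, with a highest edgeR adjusted p of 0.0019, and all 5 passed with TMM scaling. Runx1, a transcription factor that can be induced by TGF-beta, rose on all 5 diets by between 0.56 ± 0.19 on sucrose/palmitate (adjusted p = 0.034) and 1.30 ± 0.19 on the Western diet (adjusted p = 2.0e-06). The Runx1 rise on sucrose/palmitate did not pass with TMM scaling (adjusted p = 0.085), and after adjustment for the positive control ratio neither that rise (adjusted p = 0.10) nor the one on starch/palmitate (0.37, adjusted p = 0.47) did. Runx1 (-0.62 ± 0.13), Pdgfb (-0.48 ± 0.09), a platelet-derived growth factor chain, and Plau (-0.38 ± 0.09) fell on palmitate relative to oleate, 3 of the 11 genes, a share close to the 23.6% of all genes that fell.

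Other genes of the list known to be induced by TGF-beta in some cells did not move one way. Pdgfb rose on sucrose/oleate by 0.44 ± 0.12, on starch/oleate by 0.50 ± 0.12 and on the Western diet by 0.48 ± 0.13. The Pdgfb rises on starch/oleate (0.18, adjusted p = 0.14) and the Western diet (0.25, adjusted p = 0.073) did not pass with TMM scaling, nor that on sucrose/oleate after adjustment for the positive control ratio (0.40, adjusted p = 0.19). Tgfbi, a secreted matrix protein named for its induction by TGF-beta, fell on sucrose/oleate by 0.30 ± 0.10 (edgeR adjusted p = 0.019) and on the Western diet by 0.40 ± 0.11 (adjusted p = 0.0036), and with TMM scaling it fell on starch/palmitate and starch/oleate too. The Tgfbi fall on sucrose/oleate did not pass after adjustment for the ratio (adjusted p = 0.27). Fn1, the gene of fibronectin, passed in none of the 5 comparisons with chow. Smad5, a SMAD of the bone morphogenetic protein branch, fell on starch/oleate by 0.31 ± 0.11 (adjusted p = 0.011). Plaur, the gene of the urokinase receptor, fell on palmitate relative to oleate with starch (-0.74 ± 0.21, adjusted p = 0.0075) and with sucrose relative to starch on the oleate diets (-0.66 ± 0.20, adjusted p = 0.017), the second not after adjustment for the ratio (adjusted p = 0.067). Smad5 rose in the same comparisons, by 0.31 ± 0.11 (adjusted p = 0.028) and 0.34 ± 0.10 (adjusted p = 0.019), and neither passed after that adjustment (adjusted p = 0.057 and 0.078). With starch, 1 of the 11 genes rose and 3 fell on palmitate relative to oleate, beside 8.35 and 24.2% of all genes. Foxp3 and Runx3 had mean scaled counts of at most 13.6, near the negative control probes. At that level Runx3 fell with sucrose relative to starch over both fats (-0.68 ± 0.20, adjusted p = 0.032), 1 of the 11 genes beside 9.98% of all.

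**Figure D5:**
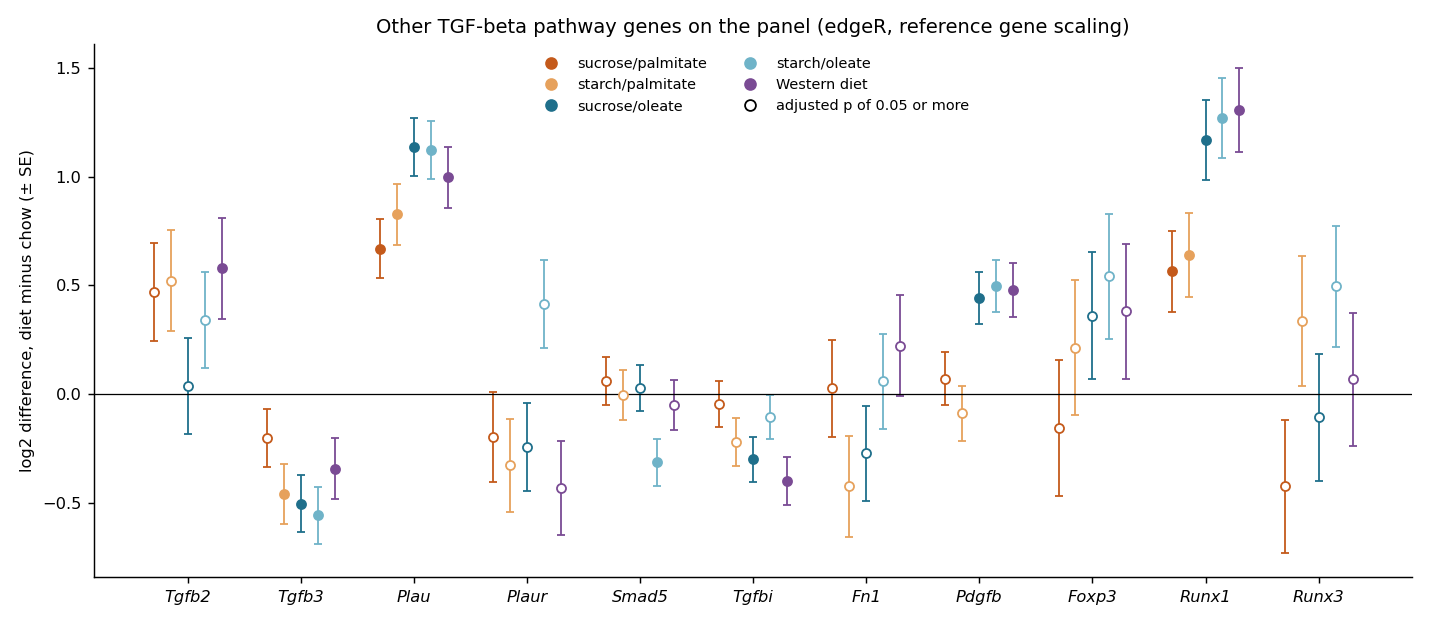
Log2 differences from chow ± SE for the 11 other TGF-beta pathway genes on the panel, by fat-rich diet, with reference gene scaling; filled symbols have an adjusted p below 0.05. Plau and Runx1 are filled and above 0 on all 5 diets, and Tgfb3 is filled and below 0 on 4.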

How the data were processed

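Total RNA of epididymal white adipose tissue was hybridised to the Mouse Immunology panel of the NanoString nCounter system. The authors deposited a table of counts, whole numbers of barcodes per probe that were not scaled between samples, as its values show; the software that made them is not given in the sources used here. Each column was matched to a sample by its title and each sample to a diet by its labels. Replicate numbers carried no pairing, with a mean correlation of deviations of -0.016 over 112 same-numbered pairs and 0.0067 over 846 others. The most similar of the 1128 library pairs had a chi-square of 5.14 for each degree of freedom, so none was counted as a copy.

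Each library was divided by a factor from the geometric mean of 14 reference genes, and 491 of 547 genes reached the minimum mean count of 10 and were tested. All 48 libraries were fitted together in edgeR 4.0.16 (R 4.3.3, glmQLFit and glmQLFTest) with a mean per diet, in 13 comparisons and an F test, and p-values were adjusted by Benjamini-Hochberg over all genes tested. The code was tested on simulated data. The alternatives were TMM scaling, a minimum mean count of 30 or none, a replicate block, only the compared groups, DESeq2 1.42.0, limma 3.58.1 on log2(scaled count + 1), the ratio of positive controls A and B as a covariate, leaving out 5 libraries high in epithelial genes, and leaving out each library. Added after the data were seen were TMM together with the ratio, the within-library ratios (exact permutation tests, SciPy 1.17.1) and the Western diet against the mean of the 4 custom diets. Relations used 100000 permutations within diets.

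The 5 genes and all lists were chosen with earlier results of these data known. Genes beside the 5 were named by a rule: pathway genes past the threshold, up to 6 a comparison by size, and the 3 genes most like each member; Fn1 and Foxp3 were named outside it after their values were seen, as were Clu and its library. Probe accessions matched RefSeq for 549 of 561 gene probes and for all 5 genes. Nothing in the labels says that libraries came from separate mice beyond their numbering, so p-values measure the spread between libraries, and the number of libraries limits their precision.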

Additional observations from a re-analysis of the deposited data

Results flagged for a closer look

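Tgfbr2 held single libraries far from the others of their diet in 3 groups: starch/palmitate replicate 4 was highest at a scaled count of 3195, sucrose/oleate replicate 2 was highest at 3527, and Western diet replicate 2 was lowest at 1166. Over 30 groups of gene and diet tested at both ends, chance flags about 1 in 20 groups. Western diet replicate 2 is the library with the high Clu count, and its summed macrophage count was 5842, against 15421 to 27601 in the other 6. Without starch/palmitate replicate 4, Tgfbr2 on that diet was at 0.01 ± 0.13 against chow (edgeR adjusted p = 0.97).

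The interaction of carbohydrate and fat for Ski, 0.41, marked a difference between the palmitate and oleate diets in the effect of sucrose against starch, and its cause was not tested.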

How the results depend on the processing

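The number of the 5 genes called changed with the scaling and with the positive control ratio. Rises and falls are counted together. Against chow the number was 2 on sucrose/palmitate with TMM scaling, DESeq2, and TMM with the ratio, against 1 with the settings of the report. The added call was a fall of Smad3, and 63, 70 and 32 of all genes tested were called there, against 84. On starch/palmitate the number was 2 with TMM, 3 with DESeq2 and 0 with the ratio, against 1. The added calls were falls of Ski, with DESeq2 of Smad3 too, and 127, 141 and 2 of all genes were called, against 124. On sucrose/oleate the number was 1 with the ratio and with TMM and the ratio, against 3, beside 31 and 46 of all genes, against 180. On the Western diet the number was 2 with TMM, DESeq2, and TMM with the ratio, against 5, beside 171, 164 and 167 of all genes, against 200. For the interaction the number was 0 with each of these 4 settings, against 1. For palmitate against oleate it was 0 with sucrose with the ratio and with TMM and the ratio, against 1, and 2 with starch with TMM, DESeq2, and TMM with the ratio, against 4. For sucrose against starch with palmitate it was 0 in 8 of 10 alternatives, against 1. With oleate it was 1, a fall of Tgfb1, with only the compared groups and without the 5 epithelium-high libraries, against 0. The F test called 3 with TMM and the ratio, against 5. Ski turned sign on starch/oleate against chow with DESeq2 (-0.23, adjusted p = 0.045), and with TMM and the ratio for the interaction (-0.042) and for palmitate against oleate with starch (0.0044). The causes were not tested.

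With single libraries left out, the count was 1 to 2 on sucrose/palmitate and on starch/palmitate, 2 to 3 on sucrose/oleate and 4 to 5 on the Western diet against chow, 3 to 4 for palmitate against oleate with starch, 0 to 1 for sucrose against starch with palmitate and with oleate, and unchanged in the other comparisons. The replicate numbers carried no pairing; with the replicate block, Tgfbr2 on the Western diet against chow was at 0.33 (adjusted p = 0.056) and Ski for sucrose against starch with palmitate at 0.29 (adjusted p = 0.060), and no other call of the 5 genes changed.

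Over all genes tested, leaving out single libraries moved the count by over 1.5 times in 5 comparisons. The 84 calls on sucrose/palmitate ranged from 23 (without sucrose/palmitate replicate 1) to 112, and 6 libraries moved them that far. The 49 for sucrose against starch ranged from 24 (without starch/palmitate replicate 3 or sucrose/oleate replicate 6) to 61, with 10 such libraries, and the 10 with palmitate from 0 (without starch/palmitate replicate 3) to 15, with 3. The 18 for palmitate against oleate with sucrose ranged from 2 (without sucrose/oleate replicate 4) to 40 (without Western diet replicate 2), with 11, and the 12 of the Western diet against the custom diets from 9 to 35 (without Western diet replicate 2), with 1. By setting, the 84 calls on sucrose/palmitate became 55 with the replicate block, 13 with only the compared groups, 40 with the ratio and 32 with TMM and the ratio. The 124 on starch/palmitate became 2 with the ratio and 36 with TMM and the ratio, and the 180 on sucrose/oleate 31 and 46. The 27 of the interaction became 42 with DESeq2 and 0 with the ratio, with or without TMM. For sucrose against starch the 49 became 29 with the block, 26 with limma and 32 without the epithelium-high libraries, the 10 with palmitate between 0 and 2 in 6 alternatives, and the 74 with oleate 151 with only the compared groups. For palmitate against oleate with sucrose the 18 became 40 with TMM, 60 with DESeq2, 9 with limma, 2 with the block, 1 with the ratio and 2 with TMM and the ratio. The 12 of the Western diet against the custom diets became 6 with the block or the ratio and 30 with DESeq2. Rises outnumbered falls by less with TMM, at 34 to 29, 72 to 55, 106 to 76, 156 to 127 and 101 to 70 against chow in the order of diets used above, where reference gene scaling gave 73 to 11, 101 to 23, 142 to 38, 237 to 59 and 161 to 39. The falls on palmitate relative to oleate were 92 beside 100 rises with TMM, against 116 beside 53.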
